A study of Mus musculus with 15 samples.

Results

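The genes described here are 47 cell cycle and DNA replication genes of the mouse, chosen by symbol and measured in sorted cells of the embryonic thalamus. They fall into 4 roles: 11 genes of DNA replication and nucleotide supply, 25 genes of G2 and mitosis, 8 genes that drive the cell through G1 into S phase, and 3 cyclin-dependent kinase inhibitors. Of the 47, 45 had an array row that named that gene and no other, of 22180 genes with such a row in the whole table. Ccnb1 had no such row, and Ccne2 appeared only in a row shared with Ints8. Where a gene had several rows, as Rrm2 did, the row with the highest mean was used.

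RNA from 15 sorted samples was measured on Affymetrix expression arrays, with 3 samples labelled as biological replicates in each of 5 groups. At E18.5 the sorted populations were red, double-labelled and green, and at E14.5 they were red and green. All embryos had the genotype Gbx2CreER-IRES-EGFP/+::R26lsl-tdTomato/+ on a c57/BL6 background, and their mothers were given 4 mg of tamoxifen. The E18.5 samples had it at E9, the E14.5 samples at E9.5. Green fluorescence in this design comes from EGFP at the Gbx2 locus, and red from tdTomato, which a tamoxifen-activated Cre switches on and which the cell and its descendants then keep. Both labels therefore depend on the Gbx2 promoter, every group carries the same alleles and drug, and the labels give neither the sorting gates nor the number of embryos per sample.

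Cells copy their DNA in S phase and divide it in M phase, and the 2 sets of genes are switched on at different times. Before S phase, cyclin D with CDK4 or CDK6 and then cyclin E with CDK2 inactivate the retinoblastoma proteins, which frees E2F factors to transcribe genes such as the MCM helicase subunits. Mitotic genes come later, under the MuvB complex with B-MYB and FOXM1, and are repressed in resting cells by the DREAM complex. Gbx2 is a transcription factor best known from young thalamic neurons that have left the cell cycle.

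Promoters of 5 members are shown so that their letters can be read beside the values below. Ube2c, Top2a, Cdk1 and Mki67 are the mitotic genes with the largest difference between E14.5 red and green cells, and Mcm6 is a replication gene whose window holds E2F words. Each window holds 250 bases before and 50 bases after the RefSeq start site on the gene's own strand, in build GRCm38.p6, and the capitals mark the searched letters. These were the cell cycle homology region (CHR, TTTGAA), to which MuvB binds, the CCAAT box (CCAAT), bound by NF-Y, and the E2F words TTCCCGC and TTGGCGC, each on both strands. Ube2c lies at chr2:164769679-164769978 on the plus strand, Top2a at chr11:99024140-99024439 on the minus strand, Cdk1 at chr10:69352863-69353162 on the minus strand, Mki67 at chr7:135716330-135716629 on the minus strand and Mcm6 at chr1:128359656-128359955 on the minus strand.
Ube2c: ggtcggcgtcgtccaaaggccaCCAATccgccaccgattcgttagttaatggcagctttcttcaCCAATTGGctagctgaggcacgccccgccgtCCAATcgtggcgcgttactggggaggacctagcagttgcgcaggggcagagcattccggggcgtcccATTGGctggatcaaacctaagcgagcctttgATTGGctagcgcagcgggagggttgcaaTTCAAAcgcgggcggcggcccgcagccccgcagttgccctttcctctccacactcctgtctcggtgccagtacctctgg
Top2a: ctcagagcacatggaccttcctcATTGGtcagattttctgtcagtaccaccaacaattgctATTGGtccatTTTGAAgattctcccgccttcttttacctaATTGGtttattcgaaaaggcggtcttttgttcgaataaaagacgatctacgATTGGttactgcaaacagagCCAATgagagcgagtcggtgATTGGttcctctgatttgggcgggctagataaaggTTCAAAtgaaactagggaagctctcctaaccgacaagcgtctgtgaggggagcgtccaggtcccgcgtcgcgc
Cdk1: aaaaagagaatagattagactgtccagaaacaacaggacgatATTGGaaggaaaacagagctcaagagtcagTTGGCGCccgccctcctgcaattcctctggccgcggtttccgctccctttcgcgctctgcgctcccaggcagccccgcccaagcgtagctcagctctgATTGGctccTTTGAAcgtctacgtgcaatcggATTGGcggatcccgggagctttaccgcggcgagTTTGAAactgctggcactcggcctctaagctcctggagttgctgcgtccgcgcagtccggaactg
Mki67: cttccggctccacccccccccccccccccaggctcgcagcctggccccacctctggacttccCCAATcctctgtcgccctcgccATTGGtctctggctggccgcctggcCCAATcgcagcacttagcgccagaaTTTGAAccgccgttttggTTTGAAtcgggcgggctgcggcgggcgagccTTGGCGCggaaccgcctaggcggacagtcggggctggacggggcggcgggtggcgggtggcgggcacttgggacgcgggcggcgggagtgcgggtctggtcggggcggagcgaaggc
Mcm6: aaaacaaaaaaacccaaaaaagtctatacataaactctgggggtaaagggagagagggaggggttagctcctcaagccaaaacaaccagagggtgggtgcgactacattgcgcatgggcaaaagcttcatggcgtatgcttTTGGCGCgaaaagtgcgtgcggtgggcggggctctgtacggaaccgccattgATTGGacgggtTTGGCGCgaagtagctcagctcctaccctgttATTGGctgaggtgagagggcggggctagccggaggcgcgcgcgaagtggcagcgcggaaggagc
The windows of Ube2c and Top2a held CHR and CCAAT letters, those of Cdk1 and Mki67 held CHR, CCAAT and E2F letters, and that of Mcm6 held CCAAT and E2F letters but no CHR. RefSeq windows were found for 37 of the 47 genes, and 4 of these genes had 2 windows, counted as holding a word if either did. The CHR was present in 16 of 21 mitotic genes (76.2%), 1 of 9 replication genes (11.1%), 0 of 5 G1 drivers and 20.2% of all 27025 genes with a window. The single replication gene with it was Mcm2. An E2F word was present in 5 of 9 replication genes (55.6%), 4 of 21 mitotic genes (19%) and 7.79% of all genes. The CCAAT box was present in 18 of 21 mitotic genes (85.7%), 8 of 9 replication genes (88.9%) and 41.1% of all genes. Of the 22 CHR matches in mitotic genes, with a site shared by overlapping windows counted once, 18 began at or after base 100 before the start site. The places of CHR matches were not counted over all genes, so this number has no share beside it. Of 23 CHR matches in all members 1 overlapped another of these words, as did 3 of 17 E2F matches. A match is a run of letters only, and factor binding was not measured.

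**Figure D1:**
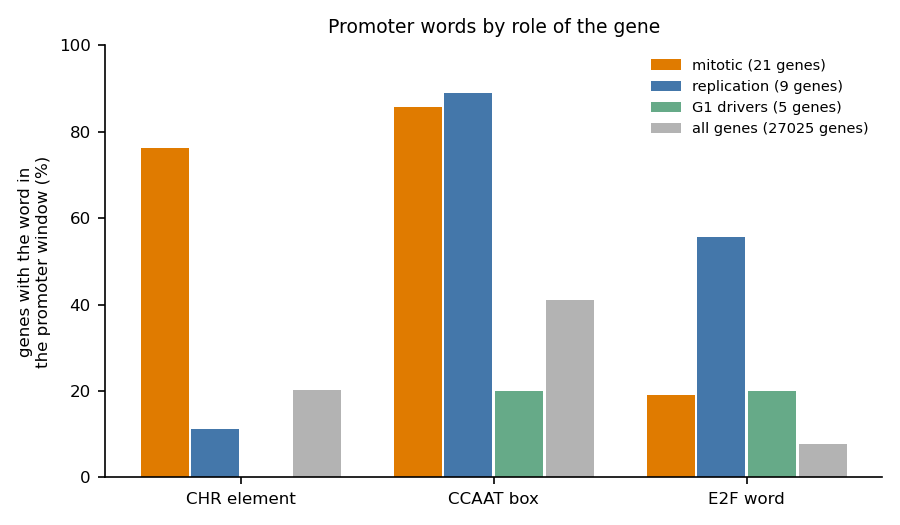
Percent of genes whose promoter window holds each searched word (vertical axis), for mitotic, replication and G1 driver genes and for all genes with a window. The CHR stands at 76.2% of mitotic and 11.1% of replication genes, against 20.2% of all genes, and the E2F words at 19% and 55.6%, against 7.79%.

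The array values are log2 signals, so they compare samples for 1 gene and not genes with each other. Array means lay between 6.17 and 6.19 at E18.5 and between 5.63 and 5.65 at E14.5, and the median gene was 0.60 higher at E18.5 in red and 0.61 higher in green cells. Values within a stage are given as deposited, and stages are compared after each array was centred on its median. Genes in the lowest 25% by mean, under 5.07, were not tested, which left 16635 genes and 41 members. Bub1 (mean 4.81), Cdk6 (4.97), Mcm3 (5.01) and Bub1b (5.06) lay just under that limit, and Anln (5.07), Birc5 (5.13) and Cdk1 (5.18) just above it. Cdk1 and Anln passed only through their level in E14.5 green cells. Among the 9 E18.5 arrays, 20 of the 45 members (44.4%, against 43.6% of the genes tested) had exactly equal values on several arrays, and at E14.5 none did (0.932% of the genes tested). Red replicate 1 and double-labelled replicate 1 of E18.5 had the smallest SD over all rows of the E18.5 arrays (1.34 and 1.31, against 1.44 to 1.51), though not the smallest range from lowest to highest value. The neuronal genes Tubb3 and Dcx, defining markers of young neurons, averaged 11.26 to 12.01 and 10.18 to 11.16 across the 5 groups. Gbx2, given as a check of the sort, averaged 6.35 ± 0.86 in E18.5 red, 8.33 ± 0.29 in double-labelled and 8.43 ± 0.17 in green cells, and 7.30 ± 0.03 in E14.5 red and 8.07 ± 0.17 in green cells (SD, n = 3 each). In limma's moderated test, red minus green was -2.07 at E18.5 (adjusted p = 0.00517). At E14.5 it was -0.77 and did not pass (adjusted p = 0.271), though every red array lay below every green one.

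At E14.5, mitotic genes were lower in red than in green cells. Of the 22 mitotic genes tested, 16 fell, none rose and 6 did not pass, where a call needs an adjusted p under 0.05 in limma's moderated test over all genes. Cdk1, which fell, and Anln, which did not pass, met the filter only through their level in green cells, the reference group here. Of all genes tested, 3.52% were called, 1.64% as lower and 1.89% as higher. The mean over the 24 mitotic genes with a row was 5.16 ± 0.04 in red and 5.96 ± 0.20 in green cells (SD, n = 3 each). Without the filter all 24 differences were negative and 16 of 24 passed, against 1.22% of genes called as lower. These were not all the same genes. Of the 17 members called with the filter, the 16 mitotic genes and Ccnd2, 15 kept their call without it. The median mitotic difference, red minus green, was -0.81, beside 0.00 for all genes.

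Ube2c, the ubiquitin-conjugating enzyme that serves the anaphase-promoting complex, had the smallest p of the members. Its log2 signals were 5.03, 5.03 and 5.17 in red cells, against 6.82, 7.26 and 7.52 in green cells. Every red array lay below every green array, and the difference was -2.12 ± 0.15 (SE, adjusted p = 5.06e-06). Red replicates 1 and 2 of Ube2c lay under the filter limit of 5.07. Top2a, the topoisomerase that untangles sister chromatids, had 4.90, 4.81 and 4.63 in red cells, against 6.31, 6.84 and 6.85 in green cells. The groups did not overlap and differed by -1.89 ± 0.20 (SE, adjusted p = 0.000127). The 3 red arrays of Top2a lay under the filter limit of 5.07, so no fold is given for it. Cdk1, the kinase that starts mitosis, had 4.86, 4.96 and 4.98 in red cells, against 5.88, 6.32 and 6.19 in green cells. All 3 red arrays were below the filter limit of 5.07 and all 3 green arrays were above it, and Cdk1 fell by 1.20 on the log2 scale (adjusted p = 0.000211). Cdk1 met the filter only through these green arrays, and it kept its call without the filter. Kif11, the kinesin that pushes the spindle poles apart, had 4.97, 4.94 and 4.90 in red cells, against 5.54, 5.94 and 5.92 in green cells. Its 3 red arrays lay under the filter limit of 5.07, and it fell by 0.86 (adjusted p = 0.000905). Mki67, which encodes the proliferation antigen Ki-67, had 5.44, 5.22 and 5.45 in red cells, against 6.30, 6.59 and 6.72 in green cells. The lowest green array of Mki67 stood above the highest red array, and the difference was -1.17 ± 0.20 (SE, adjusted p = 0.00414).

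The other 11 mitotic genes that fell spanned entry into mitosis to cytokinesis. Ccna2, cyclin A2, differed by -0.93 and Ccnb2, cyclin B2, by -0.84. Of the kinetochore genes, the motor Cenpe differed by -0.93 and Cenpf by -0.92. Cdc20, which activates the anaphase-promoting complex, differed by -0.81, the spindle assembly factor Tpx2 by -0.80 and the mitotic kinase Plk1 by -0.58. Aurkb and Birc5 (survivin), partners in the chromosomal passenger complex, differed by -0.51 and -0.70. Kif23 and Ect2, which act on the central spindle to place the cleavage furrow, differed by -0.82 and -0.58. The 6 that did not pass were Nusap1 (-0.65), Prc1 (-0.59), Aurka (-0.41), Anln (-0.38), Cdca8 (-0.18) and Kif20a (-0.14). Red and green arrays did not overlap, with red lower, in 21 of the 22 mitotic genes and 3 of the 10 replication genes tested (Rrm1, Rrm2 and Tyms), beside 14.1% of all genes tested. Kif20a was the exception among the mitotic genes. Bub1 and Bub1b, spindle checkpoint kinase genes under the filter limit, differed by -0.61 and -0.46 in the unfiltered fit (adjusted p = 0.00302 and 0.00937).

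The mitotic genes also differed among the green arrays. Green replicate 1 was the lowest of the 3 green arrays in 22 of 24 mitotic genes, beside 34.2% of all genes tested. The list mean on the green arrays was 5.73, 6.03 and 6.11. The 3 red arrays lay between 5.12 and 5.20. Leaving out green replicate 2 lowered the calls over all genes tested from 586 to 272, and leaving out green replicate 3 to 247. Either fit left 10 members past the threshold. These 10, Ccnd2, Cdk1, Cenpe, Cenpf, Ect2, Kif11, Kif23, Mki67, Top2a and Ube2c, passed whichever array was left out, and Aurkb, Birc5, Ccna2, Ccnb2, Cdc20, Plk1 and Tpx2 did not. In bulk samples, fewer dividing cells and less mitotic RNA per cell cannot be told apart.

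Replication genes gave no call in the same comparison. Of the 10 tested, 0 passed, with a median difference of -0.18, and 1 had an unadjusted p under 0.05, as did 11.9% of all genes. Mcm7, a helicase subunit, had the smallest p, with 6.49, 6.43 and 6.72 in red cells, against 6.67, 6.94 and 6.99 in green cells. The groups overlapped, since the highest red array was above the lowest green one, and the difference was -0.32 ± 0.14 (SE, adjusted p = 0.346). Rrm1, the large subunit of ribonucleotide reductase, averaged 6.97 ± 0.36 in red and 7.45 ± 0.02 in green cells (SD, n = 3 each, adjusted p = 0.507). Its partner Rrm2 had 6.16, 5.69 and 6.54 in red cells, against 6.87, 7.38 and 7.38 in green cells. The arrays of Rrm2 did not overlap, and its difference of -1.08 had an SE of 0.57 (adjusted p = 0.522). That SE pools the spread of all groups of both stages. The SD of Rrm2 was 0.43 in E14.5 red and 0.29 in E14.5 green cells, but 1.44 in E18.5 red cells. A missing call for Rrm2 therefore does not show equal levels at E14.5. Pcna, the sliding clamp of the replication fork, had 8.39, 8.01 and 8.69 in red cells, against 8.52, 8.23 and 8.58 in green cells. Mcm2, another helicase subunit, had 4.92, 5.40 and 5.40 in red cells, against 5.43, 5.44 and 5.24 in green cells. The groups overlapped for Pcna and for Mcm2, with differences of -0.08 and -0.13.

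Of the 6 G1 drivers tested, Ccnd2 fell. Ccnd2, cyclin D2, had 5.15, 5.43 and 5.86 in red cells, against 7.03, 7.40 and 7.30 in green cells. The red arrays were more spread than the green ones and all below them, and the difference was -1.77 ± 0.16 (SE), a 3.41-fold lower signal (adjusted p = 3.86e-05). Its paralogue Ccnd1, cyclin D1, had 5.39, 5.47 and 5.29 in red cells, against 5.42, 5.27 and 5.19 in green cells. These overlapped, with a difference of 0.09 ± 0.14 (SE, adjusted p = 0.946). Cdk4, the kinase partner of both D cyclins, had 8.44, 8.26 and 8.74 in red cells, against 9.16, 9.34 and 9.27 in green cells. The arrays of Cdk4 did not overlap, and the difference of -0.78 missed the threshold (adjusted p = 0.0579).

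None of the 3 inhibitors passed at E14.5. Cdkn1b, which encodes p27, averaged 7.33 ± 0.31 in red and 7.92 ± 0.18 in green cells (SD, n = 3 each), with a difference of -0.58 (adjusted p = 0.225). Cdkn1c, which encodes p57, had 7.01, 6.71 and 6.97 in red cells, against 6.93, 7.02 and 6.93 in green cells. The groups overlapped, with a difference of -0.06. Cdkn1a, which encodes p21, differed by 0.03.

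**Figure D2:**
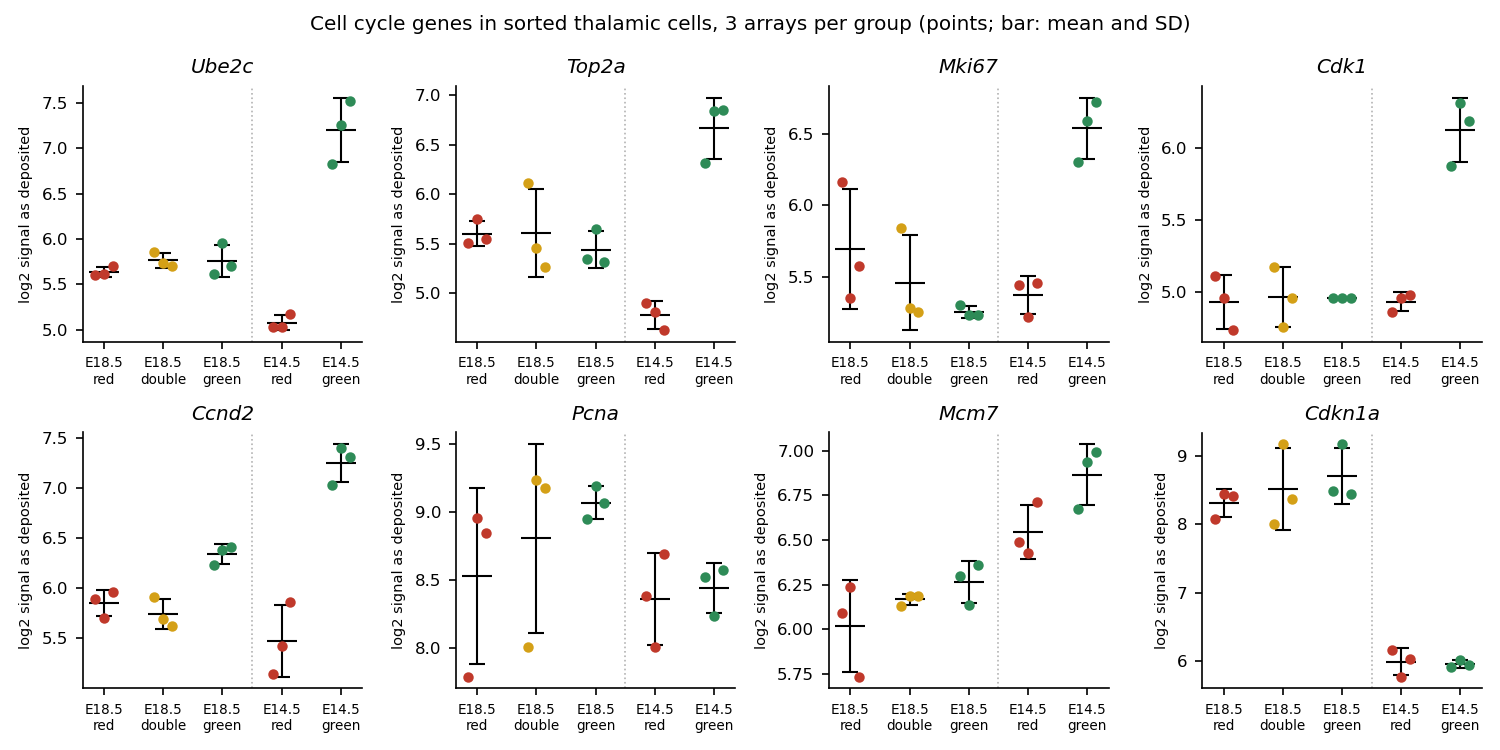
Log2 signal as deposited (vertical axes) of 8 members on each of the 15 arrays, by stage and colour, with the mean and SD of 3 arrays. Ube2c, Top2a, Mki67, Cdk1 and Ccnd2 have every E14.5 green array above every other array, while Pcna does not, and Cdkn1a is higher on every E18.5 array than on any E14.5 array.

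Further genes of the same pathways were counted for comparison, beside 1.64% of all genes called as lower and 1.89% as higher at E14.5. Of 38 other mitotic genes tested, 5 fell and 0 rose at E14.5, among them Dlgap5 (-0.62), the condensin subunit Smc4 (-1.14) and the kinetochore gene Nuf2 (-0.90). Of 32 other replication genes, Lig1, the replicative DNA ligase, rose by 0.62 (adjusted p = 0.0448) and no other passed. Of 27 other cell cycle regulators, 2 fell, the antiproliferative genes Btg2 (-1.503) and Gadd45g (-0.997). Of 16 neural progenitor markers, Prom1 (-0.96) and Nes (-0.54) fell and Slc1a3 (1.01) rose. Of 14 markers of young neurons, Nhlh1 (-2.53) and Neurod1 (-0.63), both expressed as cells become neurons, fell. Among genes of other cell types, the embryonic globin Hbb-y rose by 1.46 and the glutamate transporter Slc1a2 fell by 0.79, while 0 of 6 microglial, 0 of 8 endothelial and pericyte, 0 of 6 oligodendrocyte lineage and 0 of 6 meningeal or choroid plexus genes passed. No other erythroid or astrocyte gene passed. The other astrocyte genes differed by 0.02 (Aldh1l1) to 0.34 (S100b), opposite to Slc1a2. Of the other erythroid genes, Slc4a1 differed by 0.29 and Hbb-bh1, under the filter limit, by 0.05. The mean over 3 erythroid genes was 5.36 ± 0.14 in red and 4.76 ± 0.04 in green cells, and over 16 progenitor markers 6.21 ± 0.08 in red and 6.36 ± 0.06 in green cells (SD, n = 3 each). The part of any of these markers in the cell cycle differences was not tested.

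At E18.5 no member passed in any of the 3 comparisons between populations. Red against green called 0 of 41 members, beside 0.613% of all genes, and 4 members had an unadjusted p under 0.05 in limma's test, beside 10% of all genes. Against green, double-labelled cells gave 0 of 41 members, beside 0.0361% of all genes, and 5 members had an unadjusted p under 0.05, beside 5.7%. Against red, they gave 0 of 41 members, beside 0.0902% of all genes, and 2 members had an unadjusted p under 0.05, beside 4.52%. The 38 other mitotic, 32 other replication and 27 other regulator genes gave 0 calls in the same tests. The mean over 24 mitotic genes was 5.57 ± 0.13 in red, 5.54 ± 0.12 in double-labelled and 5.48 ± 0.02 in green cells (SD, n = 3 each).

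Mki67 had 6.16, 5.35 and 5.58 in red, 5.84, 5.28 and 5.25 in double-labelled and 5.30, 5.23 and 5.23 in green cells. Replicate 1 was the highest array of the red and of the double-labelled cells, and the difference, red minus green, was 0.44 ± 0.20 (SE, adjusted p = 0.483). Top2a had 5.51, 5.75 and 5.55 in red, 6.11, 5.45 and 5.27 in double-labelled and 5.34, 5.65 and 5.32 in green cells. The 3 populations overlapped. Cdk1 had 5.11, 4.95 and 4.73 in red and 5.17, 4.75 and 4.95 in double-labelled cells, and 4.95 on every green array. That value was shared by 5 of the 9 E18.5 arrays. Ube2c had 5.61, 5.61 and 5.70 in red, 5.86, 5.74 and 5.70 in double-labelled and 5.62, 5.95 and 5.70 in green cells, so that its populations overlapped too. Ccna2 averaged 6.13 ± 0.35 in red, 5.63 ± 0.19 in double-labelled and 5.72 ± 0.26 in green cells (SD, n = 3 each), and had the smallest mitotic p for double-labelled against red (-0.50, adjusted p = 0.93). For double-labelled against green the smallest mitotic p belonged to Aurka (0.28, adjusted p = 0.84), the kinase of the spindle poles.

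On the 2 low-SD arrays of E18.5 most mitotic genes were high, and Pcna and Rrm2 were low. Red replicate 1 was the highest red array in 20 of 24 mitotic genes, and double-labelled replicate 1 the highest of its group in 17 of 24, beside 43.8% and 39.1% of all genes tested. Markers of some other cell types were also mostly high on the same arrays. Red replicate 1 was the highest red array in 7 of 7 oligodendrocyte lineage, 8 of 10 endothelial and pericyte and 10 of 16 progenitor genes. Double-labelled replicate 1 was the highest of its group in 5 of 7, 8 of 10 and 13 of 16 of them. Other lists were mixed beside the shares of all genes. Meningeal or choroid plexus genes gave 4 of 8 in red and 7 of 8 in double-labelled cells. Microglial genes gave 4 of 8 and 6 of 8, and astrocyte genes 4 of 6 and 2 of 6. The part of these markers in the mitotic levels was not tested. Pcna had 7.79, 8.96 and 8.85 in red, 8.01, 9.24 and 9.18 in double-labelled and 8.95, 9.19 and 9.07 in green cells. Its values on the 2 low-SD arrays were below those of the other 7. Rrm2 had 5.12, 7.70 and 7.53 in red, 6.26, 7.71 and 7.82 in double-labelled and 7.15, 7.81 and 7.93 in green cells, with the same 2 arrays lowest. Without them the 3 comparisons again called 0 members. Red and double-labelled arrays with the same replicate number deviated together, and for replicates 1 and 2 the green arrays did so too. The fit with the replicate block also called 0 members in the 3 comparisons.

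Mcm4, a helicase subunit, had the smallest p of the members for red against green at E18.5. Its signals were 5.44, 6.11 and 5.75 in red, 5.99, 6.17 and 5.99 in double-labelled and 6.32, 6.31 and 6.35 in green cells. Every red array was below every green one, and the difference was -0.56 ± 0.15 (SE, adjusted p = 0.147). Mcm4 passed when red replicate 2 was left out, with -0.73 (adjusted p = 0.0242). Mcm6 differed by -0.55 (adjusted p = 0.533). Mcm2 had 5.98, 5.93 and 5.93 in red, 6.10, 5.93 and 5.89 in double-labelled and 5.93, 5.93 and 5.78 in green cells, which overlapped.

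Among the G1 drivers at E18.5, Ccnd2 had 5.89, 5.71 and 5.96 in red, 5.91, 5.70 and 5.63 in double-labelled and 6.23, 6.38 and 6.41 in green cells. Green arrays were above all arrays of the other populations, with differences of -0.49 for red minus green (adjusted p = 0.313) and -0.60 for double-labelled minus green (adjusted p = 0.482). Ccnd1 had 5.80, 5.68 and 5.47 in red, 6.05, 5.50 and 5.73 in double-labelled and 5.66, 5.71 and 5.58 in green cells, with overlap throughout. Cdk4 differed by -0.25 for red minus green and by -0.47 for double-labelled minus green (adjusted p = 0.626 and 0.84). Cdk2, the partner of cyclin E, averaged 5.38 ± 0.27 in double-labelled, 5.09 ± 0.12 in red and 5.06 ± 0.10 in green cells (SD, n = 3 each, adjusted p = 1 and 0.789).

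Of the inhibitors at E18.5, Cdkn1c had 6.82, 6.86 and 6.52 in red, 6.86, 6.70 and 6.67 in double-labelled and 6.31, 6.38 and 6.63 in green cells. The double-labelled arrays were all above the green ones, with a difference of 0.30 (adjusted p = 0.84), and red minus green was 0.29 (adjusted p = 0.477). Cdkn1b differed by -0.37 for red minus green and by -0.50 for double-labelled minus green (adjusted p = 0.539 and 0.84). Cdkn1a averaged 8.31 ± 0.20 in red, 8.51 ± 0.60 in double-labelled and 8.70 ± 0.41 in green cells (SD, n = 3 each), and its differences did not pass.

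**Figure D3:**
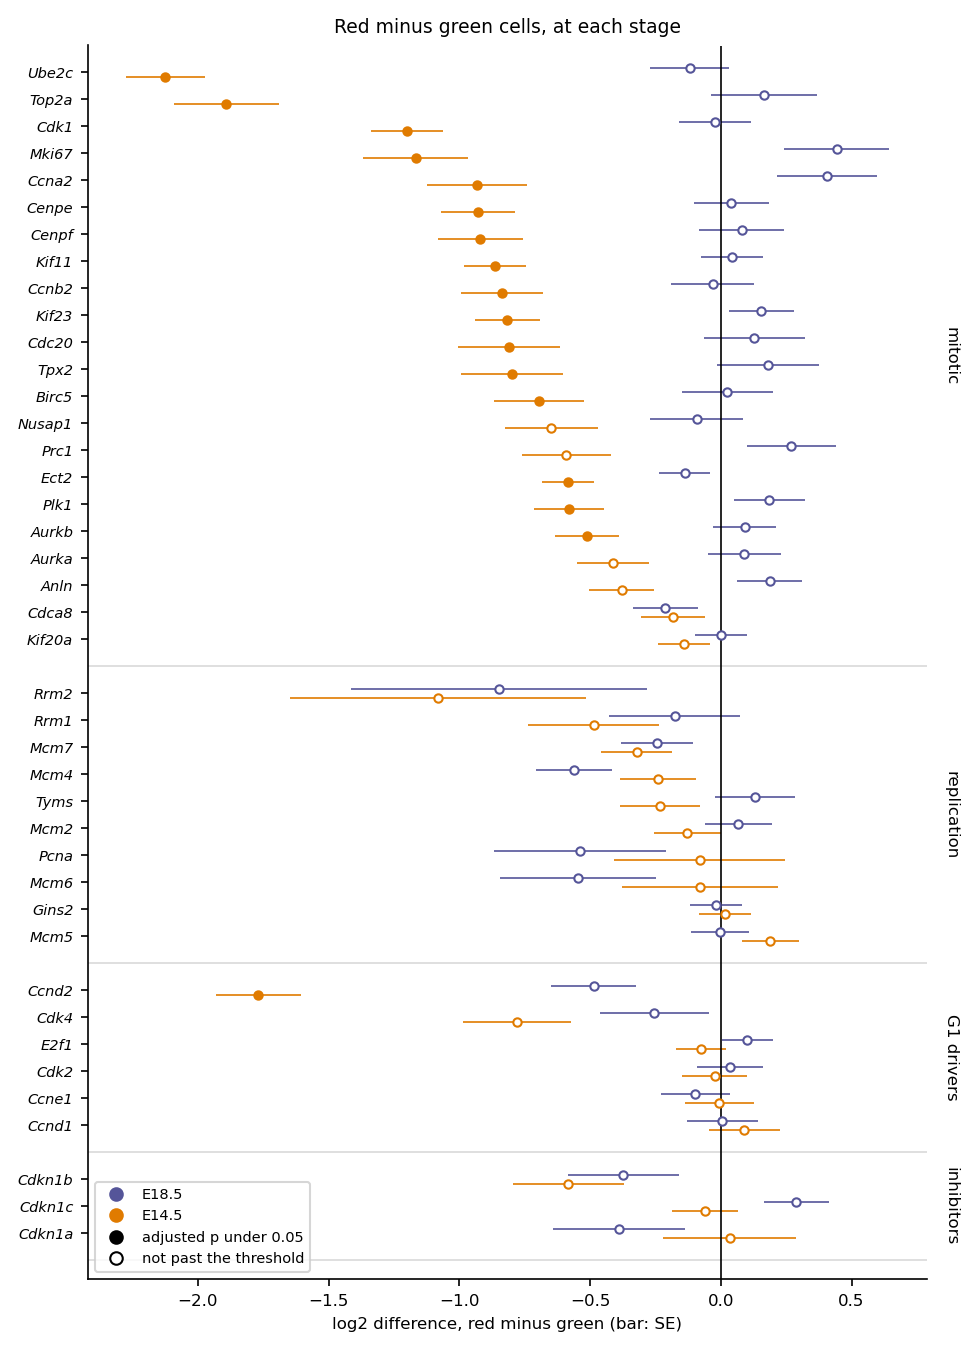
Log2 difference, red minus green (horizontal axis, bars SE), of the 41 members tested at E18.5 and at E14.5, with filled points for an adjusted p under 0.05. At E14.5, 16 of 22 mitotic genes and Ccnd2 are filled and left of 0, and at E18.5 no point is filled.

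Between stages, mitotic genes fell in green cells when each array was centred on its median. Of the 41 members tested, 32 fell, 1 rose and 8 did not pass, beside 33.1% of all genes called, 20.1% as lower and 13% as higher. All 22 mitotic genes tested fell, with a median difference of -1.001, beside -0.09 for all genes, and all 24 fell in the unfiltered fit, where 30.7% of genes were called as lower. Of the 22, Cdk1 and Anln passed the filter only through their level in E14.5 green cells, the reference group here. As deposited, without centring, 11 mitotic genes passed as lower and 0 as higher, beside 73.5% of all genes called, 2.45% as lower, and Cdca8, Kif20a and Plk1 turned positive (0.27, 0.18 and 0.04). Stage, the day of tamoxifen and any separate normalization of the stages cannot be told apart.

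Centred Ube2c signals in green cells were -0.97, -0.61 and -0.86 at E18.5, against 0.94, 1.39 and 1.65 at E14.5. The stages were far apart, and Ube2c differed by -2.14 ± 0.16 (SE, adjusted p = 2.21e-07). Cdk1 was -1.63, -1.61 and -1.61 at E18.5, against 0.00, 0.45 and 0.31 at E14.5, a difference of -1.87 (adjusted p = 5.23e-07). Cenpe averaged -1.23 ± 0.05 at E18.5 and 0.33 ± 0.37 at E14.5 (SD, n = 3 each), a difference of -1.56 (adjusted p = 2.65e-06). Mki67 was -1.28, -1.33 and -1.33 at E18.5, against 0.42, 0.72 and 0.84 at E14.5. No stage overlapped the other for these genes, and Mki67 differed by -1.98 ± 0.21 (SE, adjusted p = 7.64e-06). Top2a differed by -1.93, Ccnb2 by -1.56, Ccna2 by -1.496, Cenpf by -1.43 and Tpx2 by -1.20. The remaining mitotic genes lay between -1.05 (Aurka) and -0.43 (Cdca8). Centred, E14.5 green had the highest mean of the 5 groups in 24 of 24 mitotic genes, and as deposited in 20 of 24.

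Of the replication genes, 4 of 10 fell in green cells between stages. Mcm7 was -0.28, -0.43 and -0.21 at E18.5, against 0.79, 1.07 and 1.11 at E14.5. The stages did not overlap, and Mcm7 differed by -1.30 ± 0.13 (SE, adjusted p = 5.26e-06). Rrm1 differed by -0.89, Tyms, the enzyme that makes thymidylate, by -0.77 and Mcm5 by -0.35 (adjusted p = 0.00897, 0.00167 and 0.0417), while as deposited Rrm1 and Tyms lost the call and Mcm5 was 0.35 higher. Pcna was 2.37, 2.63 and 2.51 at E18.5, against 2.64, 2.37 and 2.70 at E14.5, and Mcm2 was -0.65, -0.63 and -0.78, against -0.45, -0.43 and -0.64. Neither passed, with differences of -0.07 and -0.18.

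Of the G1 drivers, 4 of 6 fell in green cells. Ccnd2 was -0.35, -0.19 and -0.15 at E18.5, against 1.16, 1.53 and 1.43 at E14.5, a difference of -1.60 ± 0.17 (SE, adjusted p = 6.71e-06). Cdk4 was 1.84, 2.19 and 1.75 at E18.5, against 3.28, 3.47 and 3.39 at E14.5, a difference of -1.46 (adjusted p = 4.83e-05). The stages did not overlap in either gene. Cdk2 differed by -0.90 and E2f1, an activating E2F factor, by -0.42, but as deposited Cdk2 lost the call and E2f1 was 0.28 higher. Ccnd1 was -0.93, -0.86 and -0.98 at E18.5, against -0.46, -0.60 and -0.68 at E14.5, and did not pass.

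The inhibitors moved apart from each other. Cdkn1a was 1.89, 2.60 and 1.88 at E18.5, against 0.04, 0.15 and 0.06 at E14.5 in green cells. It rose by 2.04 ± 0.24 (SE), a 4.12-fold higher signal (adjusted p = 1.59e-05), and by 2.74 as deposited. Cdkn1c was -0.27, -0.18 and 0.06 at E18.5, against 1.05, 1.15 and 1.05 at E14.5. It differed by -1.21 (adjusted p = 8.26e-06), with a value of -0.51 as deposited. Cdkn1b differed by -0.55 (adjusted p = 0.0412), and by 0.14 as deposited.

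In red cells fewer members changed between stages. Of the 41, 13 fell and 1 rose, beside 23.2% of all genes called, 13.3% as lower and 9.9% as higher. Of the mitotic genes 7 of 22 fell. As deposited, 15 of the 22 passed as higher and 0 as lower, near the share of all genes, of which 72.4% were called, 71.3% as higher. The mitotic direction in red cells thus depends on centring. Mcm7 and Cdkn1a kept their call under every setting tried.

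Cdk1 in red cells was -1.42, -1.62 and -1.79 at E18.5, against -1.03, -0.90 and -0.95 at E14.5, a centred difference of -0.65 (adjusted p = 0.00616), and 0.00 as deposited. Ccnb2 differed by -0.71 and Cenpe by -0.54 (adjusted p = 0.0089 and 0.0158), while as deposited they were -0.06 and 0.11. Aurka (-0.50), Cdca8 (-0.41), Ect2 (-0.33) and Kif20a (-0.33) were 0.15, 0.24, 0.32 and 0.32 as deposited. Mki67 was -0.37, -1.22 and -0.94 at E18.5, against -0.44, -0.64 and -0.47 at E14.5. Top2a was -1.02, -0.82 and -0.97 at E18.5, against -0.99, -1.05 and -1.30 at E14.5. The stages overlapped in both genes, and Ube2c differed by -0.09.

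Of the red replication genes, Mcm7 was -0.44, -0.33 and -0.78 at E18.5, against 0.60, 0.57 and 0.79 at E14.5. The stages were apart, by -1.17 ± 0.13 (SE, adjusted p = 3.44e-05), and by -0.52 as deposited. Mcm4 differed by -0.59 and Mcm5 by -0.49 (adjusted p = 0.00706 and 0.00944), and by 0.06 and 0.16 as deposited. Cdk4 (-0.89) and Cdk2 (-0.80) fell among the G1 drivers (adjusted p = 0.00415 and 0.00112), with -0.24 and -0.15 as deposited. Cdkn1a was 1.54, 1.88 and 1.88 at E18.5, against 0.28, -0.09 and 0.11 at E14.5. It rose by 1.67 ± 0.24 (SE), 3.17-fold, with no overlap (adjusted p = 0.000209). Cdkn1c was 0.29, 0.29 and 0.00 at E18.5, against 1.12, 0.85 and 1.05 at E14.5, a difference of -0.81 (adjusted p = 0.000533) and of -0.16 as deposited.

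**Figure D4:**
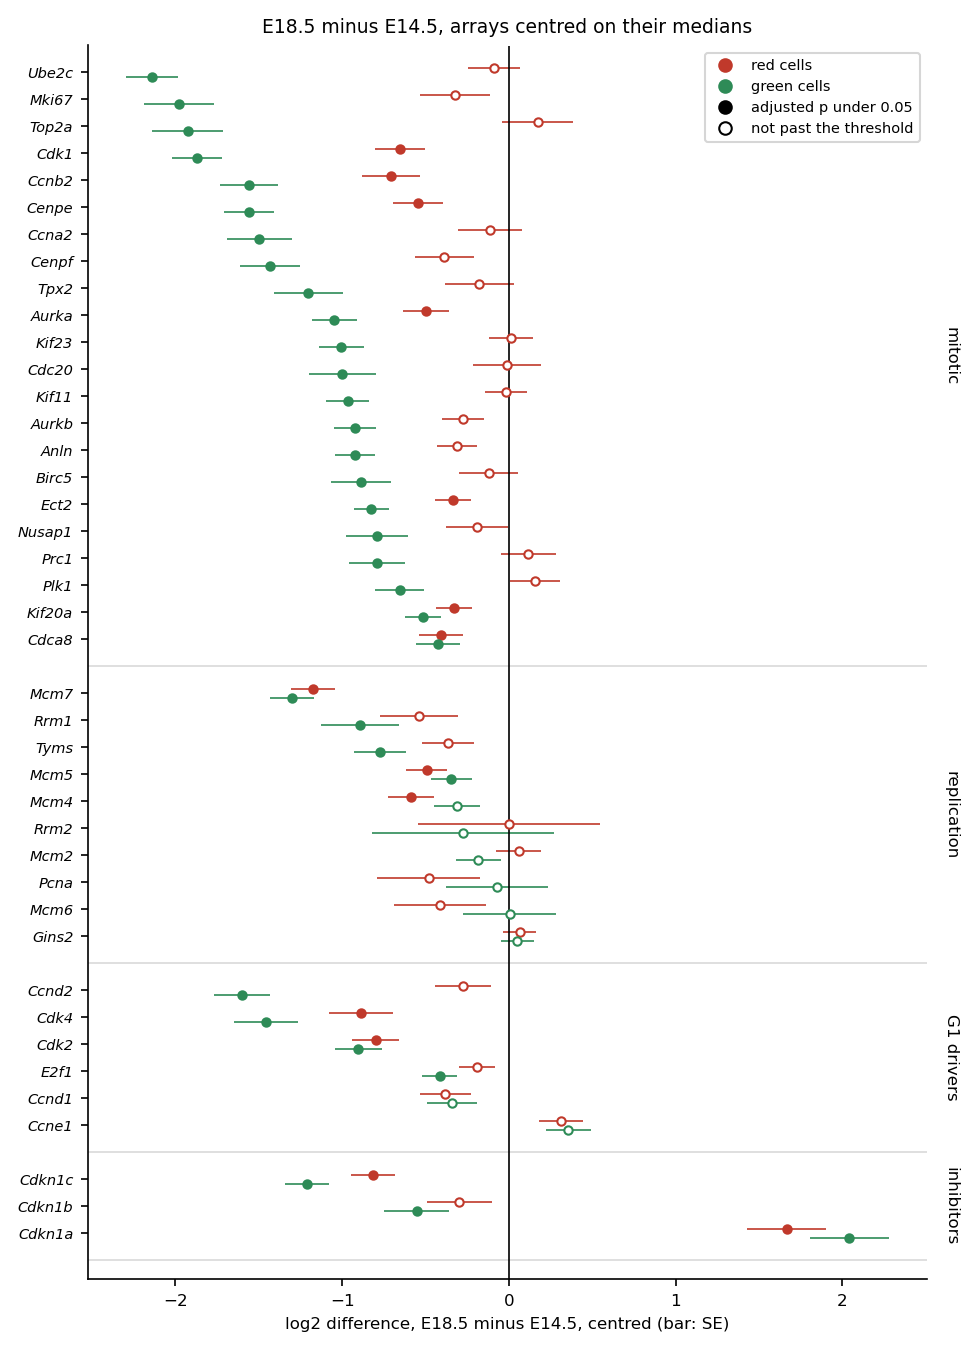
Log2 difference, E18.5 minus E14.5 on centred arrays (horizontal axis, bars SE), of the 41 members tested in red and in green cells, with filled points for an adjusted p under 0.05. All 22 mitotic genes are filled and left of 0 in green cells and 7 of 22 in red cells, where 15 pass as higher when the values are not centred.

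Other genes of these pathways were also counted between stages on centred values. Of all genes tested, 20.1% fell and 13% rose in green cells, and 13.3% fell and 9.9% rose in red cells. In green cells 25 of 38 other mitotic genes fell and 2 rose, with Ncapd2 (-1.53), Knl1 (-1.33) and Smc4 (-1.66) lower and Cit (0.86) and Cdkn3 (0.55) higher. Of 32 other replication genes 11 fell and 1 rose, with Gins1 (-0.82), Atad2 (-0.90) and Chaf1b (-0.74) lower and Rpa2 (0.78) higher. Of 27 other regulators 12 fell and 1 rose, with Gadd45g (-1.51), Btg2 (-1.81) and Rbl1 (-0.93) lower and Myc (0.79) higher. In red cells 8 of 38, 9 of 32 and 9 of 27 genes of these lists fell and 1, 0 and 1 rose. The neural progenitor markers Prom1 (-2.32) and Neurog2 (-1.88) were among 8 of 16 that fell in green cells. In red cells 5 of the 16 fell and Hes1 (0.80) and Fabp7 (1.22) rose. Of the other cell types, Olig1 (0.81) rose in red cells, the microglial C1qa rose in both (0.50 in red, 0.38 in green), and the pericyte gene Rgs5 (1.43) rose in green cells. Hbb-y (-2.01 in red, -0.70 in green), Slc1a2 (-0.92 in red, -1.52 in green) and the endothelial receptor gene Kdr (-0.42 in red, -0.41 in green) fell in both, and the meningeal collagen gene Col3a1 (-0.39) fell in green cells. Other genes of these lists differed the other way without a call. The microglial Tyrobp differed by -0.20 in red and -0.32 in green cells, and the oligodendrocyte lineage gene Sox10 by -0.57 and -0.49. In green cells the pericyte gene Pdgfrb differed by -0.20 and the endothelial gene Cdh5 by 0.43. The single genes called thus do not speak for their lists. The part of these markers in the cell cycle differences was not tested.

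Whether the red-green difference itself differed between stages was tested as E18.5 red minus green, minus E14.5 red minus green, in which a shift of a whole stage cancels. It called 9 of 41 members, all positive, beside 1.05% of all genes called, 0.547% as positive. They were 8 of 22 mitotic genes and Ccnd2, while 0 of 10 replication genes and 0 of 3 inhibitors passed. Top2a differed by 2.05 ± 0.29 (SE, adjusted p = 0.00225), from a red minus green value of 0.16 at E18.5, against -1.89 at E14.5. Ube2c differed by 2.01 ± 0.21 (SE, adjusted p = 0.000338), with -0.12 at E18.5, against -2.12 at E14.5. Cdk1 differed by 1.18 ± 0.19 (SE, adjusted p = 0.00777), with -0.02 at E18.5, against -1.20 at E14.5. Cdk1 passed the filter only through its level in E14.5 green cells, and without the filter its adjusted p was 0.00869. Ube2c passed under every setting tried, and Top2a under every setting in which it was tested, which excludes the setting with 50% of genes left out. Mki67 (1.61), Ccna2 (1.34), Kif23 (0.97), Cenpe (0.97) and Kif11 (0.91) also passed, as did Ccnd2 (1.28, adjusted p = 0.014), for which the difference was -0.49 at E18.5, against -1.77 at E14.5. Leaving out E14.5 green replicate 2 or replicate 3 left 4 members past the threshold, and leaving out E14.5 red replicate 2 left 5. Over all genes tested, the calls fell from 175 to 85, 76 and 99 in these fits. Markers of other cell types were called as well. The globin gene Hbb-y differed by -1.36 (adjusted p = 0.0217), with 0.10 at E18.5, against 1.46 at E14.5, the progenitor marker Prom1 by 1.06 and the young neuron marker Nhlh1 by 2.49 (adjusted p = 0.0167 and 0.000596). Their part in the members' change was not tested. Of the replication genes, Tyms had the smallest p (0.36, adjusted p = 0.745), and the median over the 10 was 0.02, beside 0.88 for the mitotic genes and -0.01 for all genes. The difference between mitotic and replication genes was not tested, as both lists are described here by their counts.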

How the data were processed

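The deposited table holds 1 log2 signal per transcript cluster and array, made by the authors with Affymetrix Expression Console, per the submitters' processing notes; the version and algorithm are not given in the sources used here. RNA was amplified from 10 ng before labelling, per the labels' protocols. No depth applies to arrays, and 3 arrays a group limit the precision. Of 33794 transcript clusters, 23521 named 1 gene and were used, and 1814 naming several and 8459 naming none were left out. Among several clusters of a gene (1082 genes) the brightest by mean was taken, and the dimmest 25% of genes were not tested.

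A group-means model over 15 arrays was fitted with limma 3.58.1 in R 4.3.3 (10 residual degrees of freedom, 13.9 after moderation). Tests were two-sided, with Benjamini-Hochberg adjustment over 16635 genes. Stage comparisons used arrays centred on the median of these genes. The procedure was tested on simulated data with independent noise and changes in E14.5 red cells alone. The simulation held no stage shift, no pairing of arrays and no equal values, so it did not test how these were handled. Replicate numbers were checked for pairing: same-numbered arrays of E18.5 red and double-labelled cells correlated at 0.669, 0.496 and 0.487 in their deviations from the group means, and no other pair of groups exceeded 0.1 for every number. With the same-numbered E18.5 green arrays, red arrays correlated at 0.465, 0.406 and 0.058, and double-labelled arrays at 0.373, 0.414 and 0.047. The main fit did not use the pairing. Values on every array are given for Mki67, Top2a, Ccnd1, Ccnd2, Pcna, Mcm2, Cdk1 and Cdkn1c and for members with the smallest adjusted p in each role. Others are named with their difference, and of other lists up to 3 genes per direction, or 2 for markers. The members, lists and promoter words were chosen with earlier results of these data known. Promoter windows came from RefSeq for GRCm38.p6. Figures used Python 3.11.15 and matplotlib 3.10.9. Alternatives changed scaling, filter, rows per gene, arrays in the fit and the replicate block.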

Additional observations from a re-analysis of the deposited data

Results flagged for a closer look

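The red minus green difference changed between stages, by the test of that change over all genes, in 9 members. The change, E18.5 minus E14.5 on the log2 scale, was 2.05 for Top2a, 2.01 for Ube2c, 1.61 for Mki67, 1.34 for Ccna2, 1.28 for Ccnd2, 1.18 for Cdk1, 0.97 for Kif23, 0.97 for Cenpe and 0.91 for Kif11. In each, red cells were below green cells at E14.5 with a call there, and no difference was called at E18.5. Cdk1 passed the filter on low values only through its level in E14.5 green cells. The globin gene Hbb-y, a marker of red blood cells, was called in the same test with -1.36, and its part was not tested. Stage, the day of tamoxifen and any separate normalization of the stages cannot be told apart in this change. Groups had 3 arrays, too few for a check of single arrays as outliers.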

How the results depend on the processing

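With the 50% of genes of lowest mean left out, 22 members remained in the test, and the calls were 6 for red against green at E14.5, 6 for red and 16 for green cells between stages, and 3 for the change of the red-green difference. Over all genes left, the calls in this order were 520, 3113, 4264 and 135, against 586, 3861, 5501 and 175 in the main fit. With only the 6 arrays of the red groups, 9 members passed between stages, beside 2777 of all genes tested. Leaving out 1 array at a time gave 10 to 17 calls for red against green at E14.5, 0 to 1 at E18.5, 0 in both double-labelled comparisons, 10 to 16 for red and 30 to 33 for green cells between stages, and 4 to 11 for the change of the red-green difference. Over all genes tested, these fits gave 247 to 527 calls for red against green at E14.5 and 76 to 214 for the change. Between stages they gave 2723 to 4060 in red and 4020 to 4400 in green cells. As deposited, 21 of 41 members passed in red cells, 20 of them higher, beside 72.4% of all genes, and 24 in green cells, 9 of them higher, beside 73.5%. Called members that changed sign as deposited were, in red cells, Aurka (0.15), Cdca8 (0.24), Cenpe (0.11), Ect2 (0.32), Kif20a (0.32), Mcm4 (0.063) and Mcm5 (0.16), and in green cells Cdca8 (0.27), Cdkn1b (0.14), E2f1 (0.28), Kif20a (0.18), Mcm5 (0.35) and Plk1 (0.041). Centring removes the difference between the stages' array medians, 0.65 in red and 0.70 in green cells. The replicate block gave 20 calls for red against green at E14.5, 11 for the change of the red-green difference, and 0 in the E18.5 comparisons, and 14 and 34 between stages in red and green cells. Over all genes tested it gave 842 calls at E14.5, 343 for the change, and 4315 and 5905 between stages in red and green cells. At E14.5 every array correlated best with its own number, by 0.069, 0.217 and 0.265. Without the 2 low-SD arrays the E14.5 count was 23, of which 19 were mitotic, against 17 with 16 mitotic in the main fit. With only the E14.5 arrays it was 21, of which 18 were mitotic. Over all genes tested, the calls in these 2 fits were 1434 and 1367, against 586 in the main fit. Quantile normalization, no filter and the mean of rows kept every count within 1.5 times. Members with signals near the lowest values on the arrays, such as Cdk1 at E18.5 and Top2a and Kif11 in E14.5 red cells, are limited by signal over background.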
